A study of Drosophila melanogaster with 36 samples.

Results

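The libraries described here come from the indirect flight muscle (IFM) of wild-type flies that ate either a high-fat diet or a regular diet under time-restricted feeding (TRF). They are the 6 TRF libraries on the high-fat diet (HFD-TRF) and 5 of the 6 TRF libraries on the regular diet (WT-TRF), 11 of the 36 libraries in the series. The WT-TRF library taken at ZT11 was left out because the study treated it as an outlier, and so was 1 library of sphingosine kinase 2 (*Sk2*) mutant flies fed *ad libitum*, which belongs to neither group but would enter the shared model. Counts marked as coming from all 36 libraries have both put back. Every fly in the groups compared was a female Canton-S, a standard wild-type strain, sampled at 3 weeks of age under 12 h of light and 12 h of darkness. Zeitgeber time (ZT) counts hours from lights on. TRF flies had food only from ZT0 to ZT12 and agar at night, and flies fed *ad libitum* (ALF) had food around the clock. The high-fat diet was the regular diet with added coconut oil. HFD-ALF and WT-ALF, with 6 libraries each, serve below as the same diet comparison without the feeding restriction. Each library was made from the flight muscle of 10 pooled flies, with 1 library per group every 4 h between ZT3 and ZT23. The spread within a group therefore holds the time of day and the difference between pools together, and p-values measure that spread only.

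The IFM powers the wing beat and runs almost wholly on mitochondrial respiration, so its transcriptome is dominated by contractile proteins, respiratory chain subunits and enzymes of carbohydrate oxidation. Flies answer microbes through 2 conserved pathways. The Toll pathway is opened by cleaved Spätzle and the Imd pathway by peptidoglycan recognition proteins, and both end in NF-κB factors that switch on antimicrobial peptide genes, mostly in the fat body, the fly counterpart of liver and adipose tissue. In bulk tissue, fewer cells of a type and less RNA per cell cannot be told apart.

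Reads assigned to genes ranged between 12017403 and 30682673 per library in HFD-TRF and between 3329519 and 9911737 in WT-TRF, so the diets did not overlap in depth. A count of 3, taken as the detection floor, is worth 0.156 CPM (counts scaled to a common library total) on average in HFD-TRF and 0.480 CPM in WT-TRF. Flight muscle markers summed to 7508 to 12910 CPM in HFD-TRF and 8099 to 13500 CPM in WT-TRF, and 1 of the 6, *fln*, differed between the diets. The median log2 fold change of the 6, HFD-TRF over WT-TRF, was −0.30, and 5 were negative. Fat body markers summed to 11420 to 47270 CPM in HFD-TRF (median 22390) and 36310 to 57770 CPM in WT-TRF (median 38260). Hemocyte markers summed to a median of 1543 CPM in HFD-TRF and 2243 CPM in WT-TRF, gut markers to 1391 CPM in HFD-TRF and 1317 CPM in WT-TRF, and eggshell markers to 20.5 CPM in HFD-TRF and 27.7 CPM in WT-TRF. The part that these other tissues play in the results below was not tested. The WT-TRF library at ZT11 stood apart from the other WT-TRF libraries, with 1424 CPM of eggshell markers and 3480 CPM of flight muscle markers. In the ALF comparison, eggshell markers summed to 15.1 to 29.5 CPM in HFD-ALF and 17.8 to 1278 CPM in WT-ALF (median 45.1). Gut markers summed to 287 to 8166 CPM in HFD-ALF (median 1437) and 193 to 10820 CPM in WT-ALF (median 4046). Their part in the ALF calls was not tested either.

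Flight muscle of flies on the high-fat diet carried more transcripts of 15 of 19 antimicrobial peptide genes and 11 of 25 heat shock genes, and fewer of 39 of 69 respiratory chain and ATP synthase subunits, than that of flies on the regular diet. Of 9996 genes with enough counts to test, 573 were higher in HFD-TRF than in WT-TRF (5.73%) and 474 were lower (4.74%) at an adjusted p below 0.05 (edgeR quasi-likelihood test, Benjamini-Hochberg adjustment), and a gene past that threshold is said to be called. The median absolute log2 fold change of the called genes was 0.85, and the median log2 fold change of all tested genes was −0.02. At least a 2-fold change was seen for 284 of the higher and 146 of the lower genes, and at least a 10-fold change for 62 and 54. In 23 higher genes every WT-TRF library, and in 23 lower genes every HFD-TRF library, was at or below the floor, so their fold changes are only bounds. All 6 HFD-TRF libraries lay above all 5 WT-TRF libraries for 292 genes (2.92%) and below them for 222 (2.22%).

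The number of lower genes leaned on single libraries more than the number of higher genes. Without WT-TRF at ZT7, 408 genes were higher and 208 lower, and without HFD-TRF at ZT19, 479 and 297. Without HFD-TRF at ZT3, the counts were 666 and 615. A fit to all 36 libraries gave 514 higher genes, 421 of them shared with the call from 34, and 646 lower genes, 275 of them shared. Among the lower genes of that fit were 24 of 31 tested DNA replication and mitosis genes, of which 0 were called from 34 libraries. These genes summed to 343 to 568 CPM in HFD-TRF and at most 707 CPM in the 5 WT-TRF libraries used, and to 6988 CPM in WT-TRF at ZT11. Thinning every library to 3329519 counts left 497 higher and 338 lower genes.

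Innate immune genes rose together. Of 19 antimicrobial peptide genes tested, 15 were higher in HFD-TRF, against 5.73% of all genes, and their median log2 fold change was 4.06 where that of all genes was −0.02. The same 15 were also higher in HFD-ALF than in WT-ALF. One member, *Drsl5*, was lower, and *DptA*, *DptB* and *Drsl4* were not called. Summed over the list, HFD-TRF libraries held 5321 to 17370 CPM, with a median of 10200, and WT-TRF libraries 102 to 2604 CPM, with a median of 219.

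*Drs* (3L:3369556-3369942, dm6) encodes drosomycin, the antifungal peptide that serves as the standard readout of Toll. It stood at 935 to 1801 CPM in HFD-TRF, with a median of 1154, and at 207, 105, 79.7, 54.0 and 59.6 CPM in WT-TRF at ZT3, ZT7, ZT15, ZT19 and ZT23. The lowest HFD-TRF library lay far above the highest WT-TRF one. The log2 fold change was 3.61 ± 0.63 (SE, adjusted p = 0.000426), and *Drs* was higher at all 5 shared time points.

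*AttC*, an attacin that acts on Gram-negative bacteria and answers mainly to Imd, had 1226 to 3605 CPM in HFD-TRF (median 2249), against 34.8, 18.1, 605, 3.74 and 13.3 CPM in WT-TRF. The groups did not overlap, although the WT-TRF library at ZT15 stood far above the other WT-TRF libraries. Its log2 fold change was 4.06 ± 1.03 (adjusted p = 0.0108). *Def*, the fly defensin, reached 5.65 to 141 CPM in HFD-TRF (median 20.2) and stayed at 0.257, 0, 0.103, 0.312 and 0.774 CPM in WT-TRF. That was a log2 fold change of 7.45 ± 1.52 (adjusted p = 0.00207).

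*DptA*, a diptericin, shows how 1 library can decide a call. It had 277 to 1691 CPM in HFD-TRF (median 1141), against 9.76, 1.02, 576, 0 and 2.17 CPM in WT-TRF. The ZT15 pool of WT-TRF was alone in carrying it at a high level and exceeded 2 HFD-TRF libraries. The log2 fold change of 3.10 ± 1.48 was not significant (adjusted p = 0.197), and without that library it was 8.22 (adjusted p = 0.00408). *DptB*, its close paralog, came to 4.01 (adjusted p = 0.0542).

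The other members that rose were the attacins *AttA* (log2 fold change 4.64), *AttB* (5.18) and *AttD* (4.78), the cecropins *CecA1* (4.37), *CecA2* (4.17), *CecB* (5.23) and *CecC* (4.15), the metchnikowins *Mtk* (3.39) and *Mtkl* (2.76), drosocin (*Dro*, 3.82) and the drosomycin-like genes *Drsl2* (6.76) and *Drsl3* (3.78). *AttA* and *AttB*, *CecA1* and *CecA2*, and *DptA* and *DptB* are close paralogs, so the split of reads within each pair is uncertain. *Drsl5* went the other way. It had 2.72 to 8.29 CPM in HFD-TRF (median 5.24), against 21.7, 16.8, 19.4, 19.3 and 15 CPM in WT-TRF, with no overlap (log2 fold change −1.79 ± 0.41, adjusted p = 0.00461).

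Leaving out 1 TRF library at a time gave 10 to 16 higher antimicrobial peptide genes. The count was 10 without WT-TRF at ZT7 and 16 without WT-TRF at ZT15, and 16 with all 36 libraries. Requiring at least 10 counts in every library left 6 of the 19 to test and 4 higher.

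**Figure D1:**
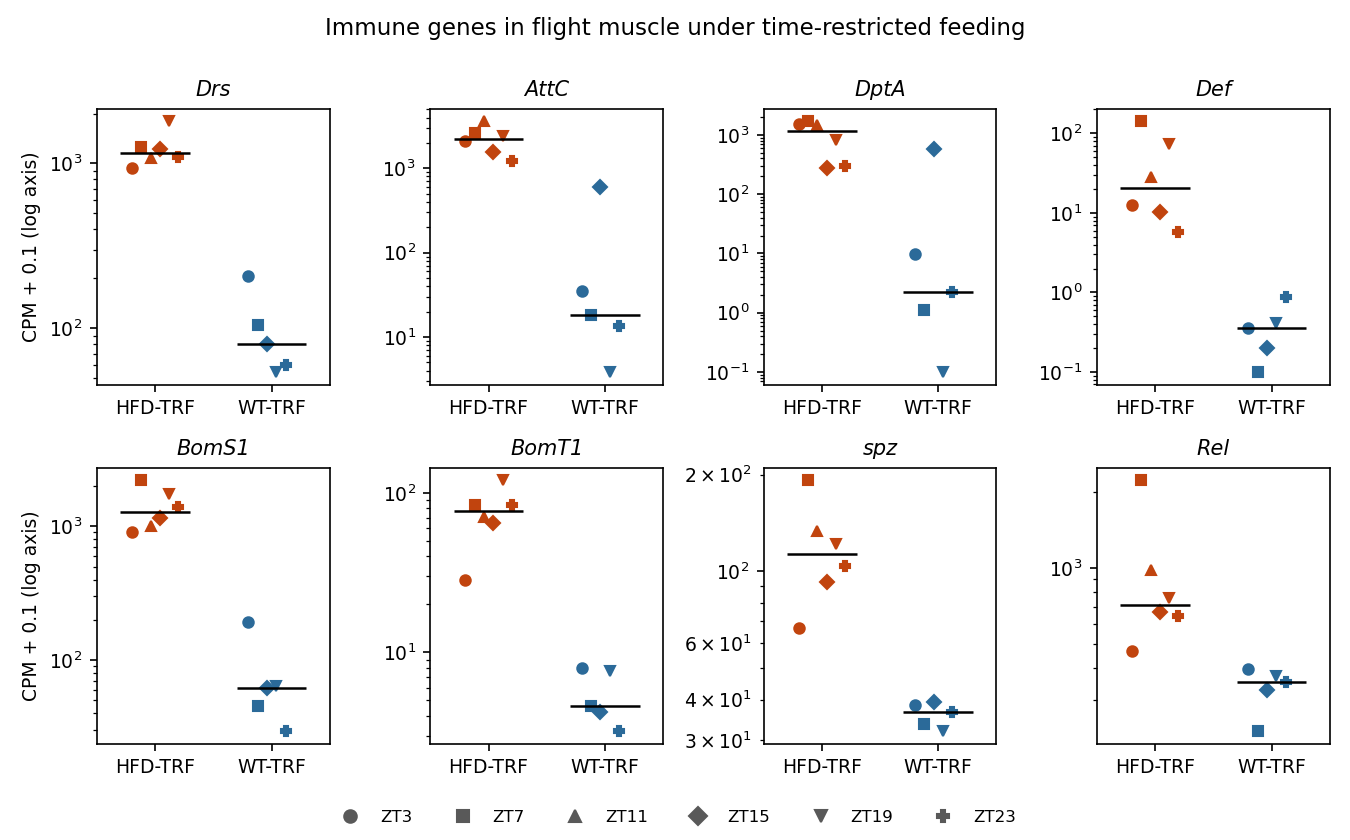
Normalised expression of 8 immune genes in each TRF library, in CPM plus 0.1 on a log axis, with HFD-TRF at the left and WT-TRF at the right of each panel; marker shape gives the time point and the bar the group median. *Drs*, *AttC*, *Def*, *BomS1*, *BomT1*, *spz* and *Rel* show no overlap between the diets, and in *DptA* the WT-TRF library at ZT15 lies among the HFD-TRF libraries, at 576 CPM.

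Bomanins, short secreted peptides that carry much of Toll-mediated resistance, moved with them. Of 16 tested Bomanins and other Toll-induced peptides, 11 were higher (68.8%, against 5.73% of all genes) and 0 were lower. Their median log2 fold change was 1.5. *BomS1* had 900 to 2197 CPM in HFD-TRF (median 1274), against 194, 45.7, 61.6, 64.3 and 29.4 CPM in WT-TRF, a log2 fold change of 4.14 ± 0.55 (adjusted p = 2.04e-05). *BomT1* had 28.3 to 120 CPM in HFD-TRF (median 77.2), against 7.83, 4.51, 4.12, 7.49 and 3.10 CPM in WT-TRF. Its change of 3.82 ± 0.35 had the smallest adjusted p among the genes described here, 4.31e-08. *BomBc1* (4.67), *BomS5* (2.81), *BomS3* (2.71), *BomS2* (2.42), *BomBc3* (1.67), *BomBc2* (1.33), *Bbd* (1.13), *BomT2* (1.06) and *BomT3* (1.03) made up the rest. The count stayed between 9 and 11 whichever 1 of the 11 TRF libraries was left out.

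Recognition and signalling genes were also higher. Of 10 peptidoglycan recognition proteins tested, 8 were higher (80%, against 5.73% of all genes), with a median log2 fold change of 1.54. They included the Imd receptor *PGRP-LC* (0.52), the inhibitory *PGRP-LF* (1.59), the amidases *PGRP-LB* (2.23), *PGRP-SC2* (3.91) and *PGRP-SB1* (2.72), which cut peptidoglycan, and *PGRP-SA* (1.5), which senses Gram-positive bacteria for Toll. *PGRP-SD* (2.67) and *PGRP-LA* (0.79) were the others. *PGRP-SB1* had 236 to 896 CPM in HFD-TRF (median 307), against 36.2, 52.3, 171, 31.2 and 33.7 CPM in WT-TRF, again with ZT15 highest in WT-TRF but below every HFD-TRF library.

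Of 23 Toll and Imd pathway components, 8 were higher (34.8%, against 5.73% of all genes) and 0 lower. Without HFD-TRF at ZT3, 3 were lower. *spz* (3R:27064990-27070070), the Toll ligand, had 66.8 to 192 CPM in HFD-TRF (median 113), against 38.4, 33.4, 39.4, 31.8 and 36.5 CPM in WT-TRF (log2 fold change 1.72 ± 0.22, adjusted p = 1.5e-05). The WT-TRF library at ZT11 held 111 CPM. *SPE*, the protease that cleaves Spätzle, rose by 1.32, the receptor *Tl* by 0.80, the kinase *pll* by 0.85, the IκB *cact* by 0.87 and the serpin *nec*, which restrains Toll activation, by 1.12. On the Imd side, *Rel* (3R:9044183-9047977), its NF-κB factor, had 466 to 2222 CPM in HFD-TRF (median 712), against 398, 225, 327, 372 and 354 CPM in WT-TRF (log2 fold change 1.51 ± 0.33, adjusted p = 0.00331). The Imd inhibitor *pirk* rose by 2.18. These pathways therefore showed both activators and inhibitors among the higher genes. *Irc*, the immune-regulated catalase, rose by 1.52 and had 516 to 971 CPM in HFD-TRF against 207 to 300 CPM in WT-TRF.

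Beside these genes, 10 of 12 hemocyte and 10 of 12 fat body markers had negative fold changes, mostly without a call. Of all 9996 genes, 5284 had negative fold changes. Of 12 hemocyte markers 2 were lower (*NimC2* −1.22 and *Pxn* −0.93), and of 12 fat body markers 2 were lower (*Lsp1beta* −2.0 and *apolpp* −1.03), with list medians of −0.50 and −0.71. The called share was 16.7% of each list, against 4.74% of all genes. None of these markers was higher at the threshold. Without HFD-TRF at ZT3, 9 hemocyte and 5 fat body markers were lower. The 5 tested Turandot genes, secreted peptides of the humoral stress response, were not called (0 at an unadjusted p below 0.05, and 0 with DESeq2).

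Heat shock genes also rose. Of 25 heat shock proteins and chaperones, 11 were higher (44%, against 5.73% of all genes) and 0 lower. The median log2 fold change was 0.85, or 0.83 with genes at the floor set to their bounds. Small heat shock proteins, which hold unfolded proteins in solution, made up 4 of the 11. *Hsp23* (3L:9381882-9382765) had 46.4 to 204 CPM in HFD-TRF (median 112), against 21.1, 6.15, 21.6, 7.49 and 24.0 CPM in WT-TRF (log2 fold change 2.83 ± 0.74, adjusted p = 0.0133). *Hsp67Bc* (2.77), *Hsp27* (2.59) and *Hsp26* (2.46) rose as well.

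Inducible Hsp70-type chaperones followed. *Hsp68* rose by 2.83, with 84.3 to 249 CPM in HFD-TRF against 10.6 to 29.7 CPM in WT-TRF. *Hsp70Bb* rose by 3.90 and *Hsp70Bc* by 3.37, and *Hsp70Ba*, at the floor in WT-TRF, was at least 4.27-fold higher. The Hsp70B copies are nearly identical, so their individual values are uncertain. *Hsc70-3* (0.86) and *Gp93* (0.85), the endoplasmic reticulum chaperones, and *stv* (1.14), a BAG cochaperone of muscle, completed the group.

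The WT-TRF library at ZT11 held 467 CPM of *Hsp26* and 228 CPM of *Hsp27*, against at most 24.8 and 3.98 CPM in the other WT-TRF libraries. With all 36 libraries, the log2 fold changes were −0.06 for *Hsp26* (adjusted p = 0.98) and −1.65 for *Hsp27* (adjusted p = 0.38), *Hsc70-3* (adjusted p = 0.0826) and *Gp93* (adjusted p = 0.176) lost their call too, and 8 genes of the list were higher. Without WT-TRF at ZT7, 6 were higher.

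**Figure D2:**
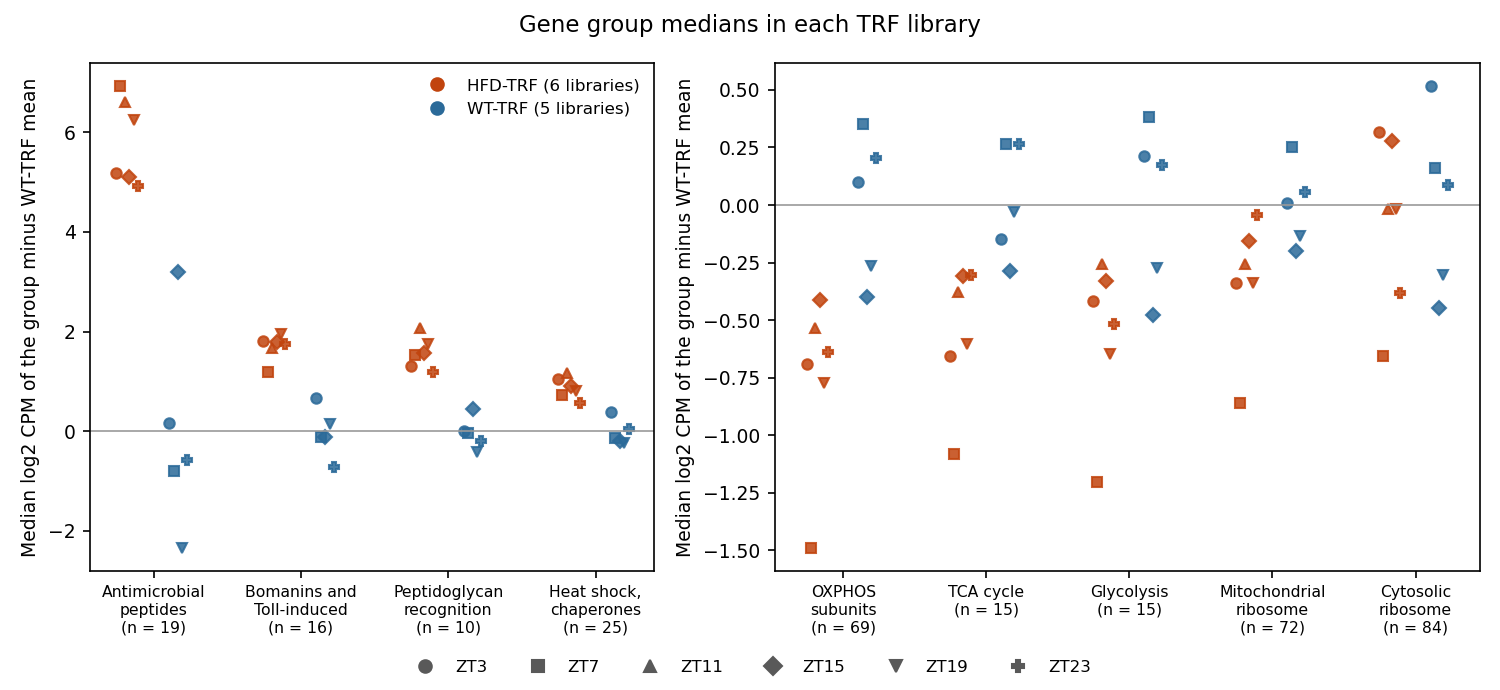
Median over the genes of each group of log2 CPM in a library minus the WT-TRF mean of the gene, for the 6 HFD-TRF libraries (left in each pair) and the 5 WT-TRF libraries (right); marker shape gives the time point. Antimicrobial peptides, Bomanins, peptidoglycan recognition proteins and heat shock proteins lie higher in every HFD-TRF library. OXPHOS subunits lie lowest in HFD-TRF at ZT7 (−1.49), and cytosolic ribosomal proteins overlap.

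The respiratory chain fell broadly. Of 69 nuclear-encoded oxidative phosphorylation subunits tested, 39 were lower (56.5%, against 4.74% of all genes) and 0 higher, with a median log2 fold change of −0.76. All but 1 of the 69 had a negative fold change. Lower genes were found in every complex, with 16 of 33 in complex I (NADH dehydrogenase), 3 of 4 in complex II (succinate dehydrogenase), 5 of 9 in complex III, 8 of 11 in complex IV (cytochrome c oxidase) and 7 of 12 in ATP synthase. The medians of the complexes lay close together, between −0.77 and −0.75. In 27 of the 39, all HFD-TRF libraries lay below all WT-TRF libraries. The same held for 179 of all 474 lower genes, and for 2.22% of all genes tested.

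*ND-B8* (2L:4454626-4455207), a small accessory subunit of complex I, fell furthest of the group. It had 25 to 39.4 CPM in HFD-TRF (median 31.8), against 70.1, 113, 80.8, 64.3 and 71.2 CPM in WT-TRF, without overlap (log2 fold change −1.32 ± 0.26, adjusted p = 0.0015). *SdhA*, the flavoprotein of succinate dehydrogenase, had 1030 to 2289 CPM in HFD-TRF (median 1571), against 2449, 3527, 2262, 2584 and 3456 CPM in WT-TRF. The highest HFD-TRF library just passed the lowest WT-TRF one (log2 fold change −0.81 ± 0.23, adjusted p = 0.0215).

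*ATPsynbeta*, the catalytic subunit of ATP synthase, had 2922 to 7136 CPM in HFD-TRF (median 4850), against 7285, 9374, 7350, 8935 and 7459 CPM in WT-TRF (log2 fold change −0.70 ± 0.21, adjusted p = 0.0266). *UQCR-11*, of complex III, had 102 to 267 CPM in HFD-TRF (median 140), against 294, 383, 333, 362 and 274 CPM in WT-TRF, again without overlap (log2 fold change −1.07 ± 0.28, adjusted p = 0.0149). Complex IV was represented by *COX7AL2* (−1.04), *COX8* (−0.97), *COX5B* (−0.96) and *COX5A* (−0.76).

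Direction and call differed in how firmly they held. The median of the group was negative relative to the WT-TRF mean in every HFD-TRF library, from −1.49 at ZT7 to −0.41 at ZT15, while WT-TRF libraries ranged between −0.40 and 0.35, so ZT15 of HFD-TRF and ZT15 of WT-TRF lay next to each other. Leaving out 1 library at a time gave 15 to 45 lower subunits, with 15 without WT-TRF at ZT7, 24 without HFD-TRF at ZT7 and 26 without WT-TRF at ZT23. With all 36 libraries, 21 were lower. *ATPsynbeta* was called in 11 of 20 settings and *SdhA* in 15 of 20, while *ND-B8*, *ND-15*, *UQCR-14* and *COX7B* were called in all of them.

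**Figure D3:**
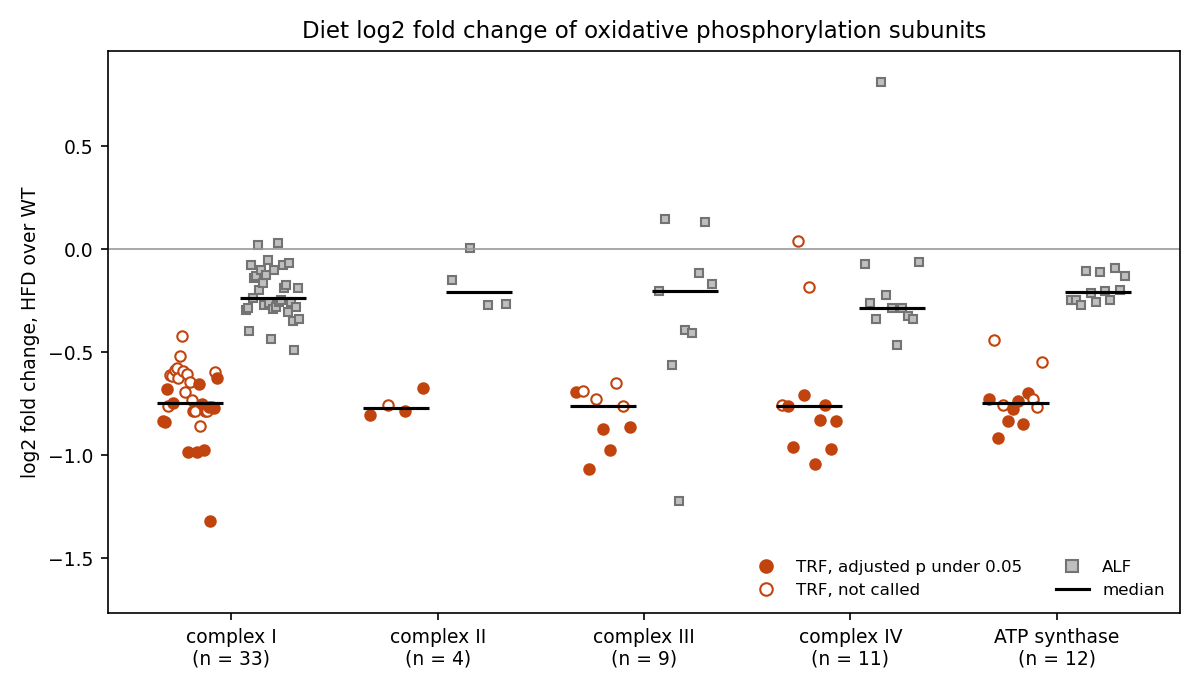
Log2 fold change of each oxidative phosphorylation subunit by complex, HFD-TRF over WT-TRF (circles, filled at an adjusted p under 0.05) beside HFD-ALF over WT-ALF (squares), with medians as bars. The TRF medians lie between −0.77 and −0.75, and the ALF medians between −0.28 and −0.20.

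Enzymes that feed the chain fell with it. Of 15 TCA cycle enzymes, 7 were lower (46.7%, against 4.74% of all genes) and 0 higher. The median was −0.58, and all 15 fold changes were negative. *mAcon1*, the mitochondrial aconitase, had 2930 to 6796 CPM in HFD-TRF (median 4516), against 6453, 9064, 6956, 7029 and 8126 CPM in WT-TRF, with slight overlap (log2 fold change −0.66 ± 0.20, adjusted p = 0.0312). The 3 subunits of the NAD-dependent isocitrate dehydrogenase, *Idh3a* (−0.75), *Idh3g* (−0.66) and *Idh3b* (−0.65), the malate dehydrogenase *Mdh2* (−0.69) and the pyruvate dehydrogenase subunits *muc* (−0.58) and *Pdha* (−0.53) were the others. Without WT-TRF at ZT7, 1 was called, without WT-TRF at ZT23, 2, without HFD-TRF at ZT7 or ZT19, 3, without HFD-TRF at ZT3, 4, and with all 36 libraries, 1.

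Of 15 genes of glycolysis and the glycerophosphate shuttle, 5 were lower (33.3%, against 4.74% of all genes) and 0 higher (median −0.57). They were pyruvate kinase (*PyK*, −0.96), the hexokinase *Hex-C* (−0.86), *Gpdh1* (−0.81), phosphoglycerate kinase (*Pgk*, −0.65) and aldolase (*Ald1*, −0.50). *PyK* had 316 to 682 CPM in HFD-TRF against 751 to 1428 CPM in WT-TRF and, like *Hex-C*, kept its call in all 20 settings. The count was 2 without WT-TRF at ZT3 or ZT7 and 3 without WT-TRF at ZT23 or HFD-TRF at ZT7 or ZT19. Among 8 genes of glycogen and trehalose metabolism, 3 were lower (37.5%, against 4.74% of all genes). These were glycogen phosphorylase (*Glyp*, −0.59), *Pgm1* (−0.51) and *UGP* (−0.50). None of these 3 was called without WT-TRF at ZT7 or ZT23, or without HFD-TRF at ZT7 or ZT19, and 1 was called without WT-TRF at ZT3 or ZT19. Of 72 mitochondrial ribosomal proteins 10 were lower (13.9%, against 4.74% of all genes), with a median of −0.34. Leaving out single libraries gave 0 (WT-TRF at ZT7) to 17 (HFD-TRF at ZT23). *Sod2*, the manganese superoxide dismutase of the mitochondrial matrix, fell by 0.76.

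Other housekeeping machinery was not called. Of 84 cytosolic ribosomal proteins 0 were called (0 at an unadjusted p below 0.05 and 0 with DESeq2), with a median log2 fold change of −0.08. Of 33 proteasome subunits 0 were called (5 higher and 1 lower at an unadjusted p below 0.05, 0 with DESeq2), with a median of 0.18, but without WT-TRF at ZT3 13 were higher.

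Few genes of the contractile apparatus were called. Of 22 sarcomere and myofibril proteins, 3 were lower (13.6%, against 4.74% of all genes). The median log2 fold change was −0.26, and 19 of the 22 fold changes were negative. *fln* (3L:19989551-19991220) encodes flightin, the thick filament protein of IFM, and had 111 to 243 CPM in HFD-TRF (median 160), against 271, 417, 354, 330 and 325 CPM in WT-TRF (log2 fold change −1.02 ± 0.27, adjusted p = 0.0146). The groups did not overlap. Myofilin (*Mf*, −0.62) and *GstS1* (−0.66), a glutathione S-transferase bound to the IFM thin filament, were the others. None of the 3 was called without WT-TRF at ZT7, where *fln* had an adjusted p of 0.0573, and 1 was called with all 36 libraries.

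Genes of glycine, serine and one-carbon metabolism included some of the largest metabolic changes. *Gnmt* (3R:12674608-12676084), glycine N-methyltransferase, which consumes glycine and S-adenosylmethionine, had 10.2 to 121 CPM in HFD-TRF (median 62.0), against 1.16, 2.87, 4.02, 4.05 and 0.774 CPM in WT-TRF. The groups did not overlap, and HFD-TRF at ZT7 was the lowest of its group. The log2 fold change was 4.71 ± 0.93 (adjusted p = 0.0015).

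*Nmdmc*, the mitochondrial methylenetetrahydrofolate dehydrogenase, had 46.4 to 187 CPM in HFD-TRF (median 93.3), against 19.6, 20.4, 16.9, 29.9 and 22.6 CPM in WT-TRF (log2 fold change 2.33 ± 0.37, adjusted p = 0.000152). It overlaps *Rel* on 3R and both rose; counting used strand. *aay*, the phosphoserine phosphatase that completes serine synthesis, had 211 to 724 CPM in HFD-TRF (median 353), against 147, 116, 131, 86.4 and 101 CPM in WT-TRF (log2 fold change 1.73 ± 0.28, adjusted p = 0.000154). These were 3 of 20 tested genes of the group (15%, against 5.73% of all genes). The group median was 0.04, and all 3 were also higher in HFD-ALF. Purine synthesis, which draws on glycine and formyl-folate, had 2 of 23 genes higher (8.7%, against 5.73% of all genes), *Pfas* (1.68) and *Adsl* (0.76). The call of *Adsl* held in 9 of 20 settings, and with all 36 libraries its log2 fold change was 0.36 (adjusted p = 0.419). *Pfas* had 88.3 to 466 CPM in HFD-TRF against 58.3 to 80.5 CPM in WT-TRF.

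The study picked out some genes from these samples for their response to TRF, among them the purine genes *Pfas* and *Adsl*. The values of such genes here are therefore not independent evidence. A list of 13 genes held some of them, together with *Sk2*, *Arc1* and *Arc2*, which the study did not pick for that response. In this list, *Gnmt* and *Nmdmc* were higher on the high-fat diet and *CG7997* was lower (−0.75, adjusted p = 0.0277). *Sardh* (0.02, adjusted p = 0.987) and *Tdh* (0.18, adjusted p = 0.831), which also act on glycine, were not called, nor were *Lsp2* (0.76), *grass* (0.58), *Sk2* (0.60), *CG13992* (1.41), *AMPKalpha* (−0.28), *Arc1* (0.12) or *Arc2* (0.27). *Dgat2*, a diacylglycerol acyltransferase, had 0.528 to 1.46 CPM in HFD-TRF (median 1.18), against 1.67, 1.13, 1.44, 1.87 and 0.929 CPM in WT-TRF, and the groups overlapped (log2 fold change −0.30 ± 0.39, adjusted p = 0.735).

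In the insulin, TOR and AMPK pathways, 7 of 29 genes were higher (24.1%, against 5.73% of all genes) and 0 lower. Their median log2 fold change was 0.04. *InR* (3R:21570248-21619321), the insulin receptor, had 156 to 348 CPM in HFD-TRF (median 186), against 75.1, 74.8, 166, 110 and 84.4 CPM in WT-TRF. It was higher at all 5 shared time points and overlapped only through WT-TRF at ZT15 (log2 fold change 1.11 ± 0.24, adjusted p = 0.00351). *Thor*, the 4E-BP that limits translation when TOR activity is low, had 2215 to 5092 CPM in HFD-TRF (median 2686), against 1763, 1822, 1101, 1569 and 2336 CPM in WT-TRF (log2 fold change 0.85 ± 0.28, adjusted p = 0.0438).

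*ImpL2*, a secreted binder of insulin-like peptides that dampens signalling, rose by 1.69, and *Akt* (0.56), *Pdk1* (0.36), *rictor* (0.72) and *REPTOR* (0.53), a transcription factor held back by TORC1, were also higher. The receptor and its antagonist thus stood on the same side. *InR* was called in every setting, *Thor* in 10 of 20 and *rictor* in 8 of 20. Without HFD-TRF at ZT7, 2 were called, without HFD-TRF at ZT11, 3, and without WT-TRF at ZT3, ZT7, ZT19 or ZT23, 4 each. With the time point as a block, 5 genes of the list were higher and 2 lower.

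**Figure D4:**
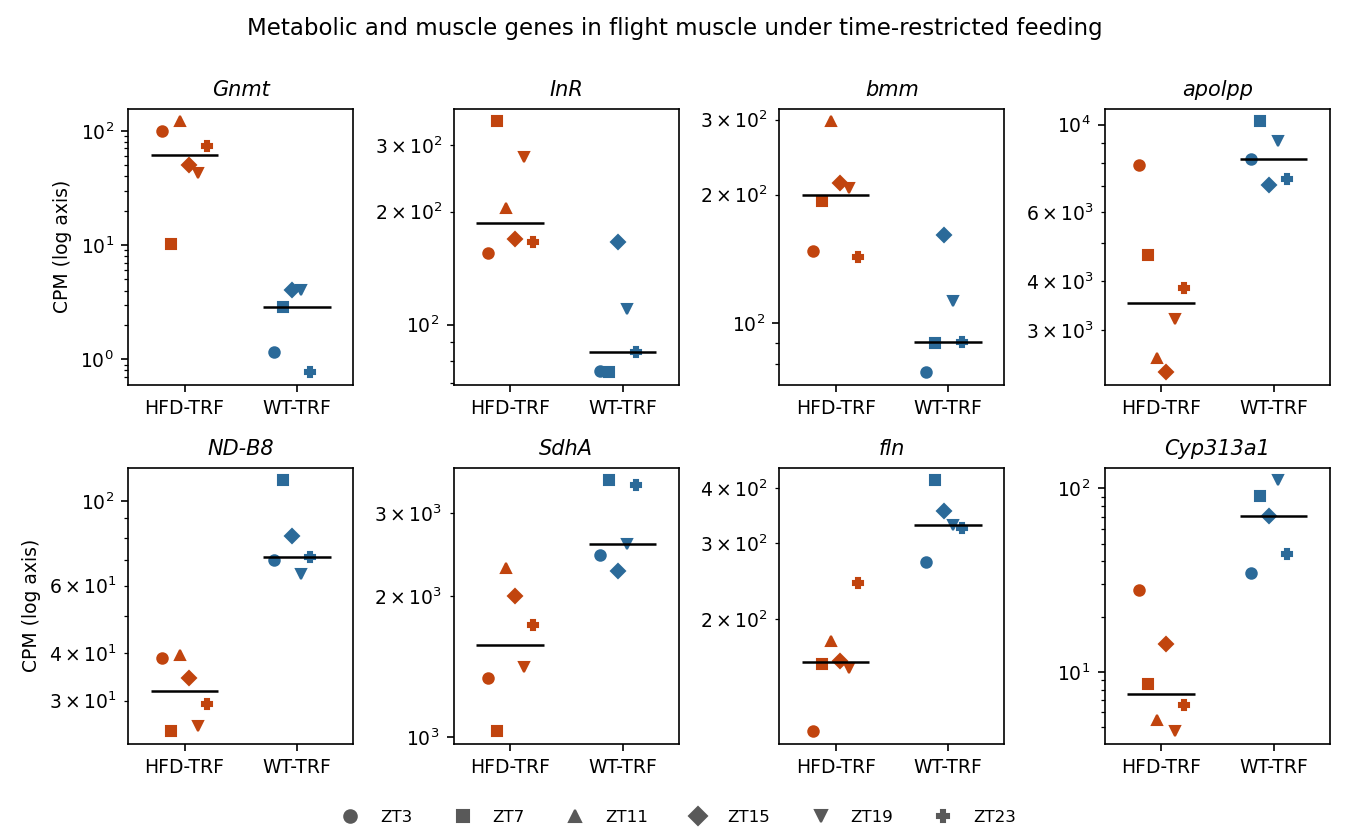
Normalised expression of 8 metabolic and muscle genes in each TRF library, in CPM on a log axis, with HFD-TRF at the left and WT-TRF at the right; marker shape gives the time point and the bar the group median. *Gnmt* is higher and *ND-B8*, *fln* and *Cyp313a1* lower in all HFD-TRF libraries, while *InR*, *bmm*, *apolpp* and *SdhA* overlap in 1 or more libraries.

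Lipid handling changed at few points. Among 20 genes of lipid droplets and lipolysis, *bmm* and *Lpin* were higher (10%) and *CG1946* was lower (5%). The shares of all genes were 5.73% and 4.74%. *bmm* encodes Brummer, the main triglyceride lipase, and had 143 to 297 CPM in HFD-TRF (median 200), against 76.8, 89.9, 161, 113 and 90.1 CPM in WT-TRF, with overlap through ZT15 of WT-TRF (log2 fold change 0.92 ± 0.21, adjusted p = 0.00588). *Lpin*, the phosphatidate phosphatase lipin, rose by 0.79 and was called in 13 of 20 settings. *CG1946*, related to *Dgat2*, fell by 3.11 and was called in 5 of 18.

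The perilipins were not called, with *Lsd-1* at −0.91 (adjusted p = 0.0575) and *Lsd-2* at 0.02 (adjusted p = 0.973). Nor were *Hsl* (0.27), the acyltransferases *mdy* (−0.80), *mino* (−0.27), *CG1941* (−0.20), *Agpat1* (−0.14), *Agpat2* (0.15), *Agpat3* (−0.06) and *Gpat4* (0.01), the lipases *Lip1* (0.15), *Lip3* (−0.41), *Lip4* (0.19) and *mag* (−3.14), *puml* (−0.09) or *Seipin* (−0.08). Fatty acid synthesis had 1 of 17 genes lower (5.88%, against 4.74% of all genes), with a list median of −0.41. This was *Acsl* (−0.65), which activates long-chain fatty acids. Without HFD-TRF at ZT3, 8 of the 17 were lower. Fatty acid oxidation had 1 of 29 higher, *CG17544* (1.70), and 1 lower, the carrier *colt* (−0.46). That was 3.45% each way, against 5.73% and 4.74% of all genes.

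Of 9 lipoproteins, lipoprotein receptors and lipocalins, 2 were higher and 2 lower (22.2% each, against 5.73% and 4.74% of all genes). Their median log2 fold change was −0.14. *LpR1*, a receptor for the lipoprotein lipophorin, had 299 to 922 CPM in HFD-TRF (median 413), against 114, 172, 204, 184 and 208 CPM in WT-TRF, without overlap (log2 fold change 1.44 ± 0.36, adjusted p = 0.00911). *LpR2* rose by 0.78. *apolpp*, the apolipoprotein of lipophorin and a fat body product, had 2353 to 7913 CPM in HFD-TRF (median 3529), against 8166, 10190, 7035, 9086 and 7256 CPM in WT-TRF (log2 fold change −1.03 ± 0.30, adjusted p = 0.0265). HFD-TRF at ZT3 was the only library that crossed. *apolpp* was called in 12 of 20 settings.

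Of 13 scavenger receptors of the CD36 family, 5 were lower (38.5%, against 4.74% of all genes) and 0 higher. All 5 were lower in HFD-ALF too. They were *ninaD* (−1.84) and *santa-maria* (−0.58), which take up carotenoids, *CG7227* (−1.34), *dsb* (−1.18) and *CG2736* (−0.80). Without WT-TRF at ZT7 or ZT15, 3 were called. Of 15 sphingolipid genes, 4 were higher (26.7%, against 5.73% of all genes). These were the serine palmitoyltransferase subunits *lace* (1.07) and *Spt-I* (0.68), the ceramide synthase *schlank* (0.74) and the dihydroceramide desaturase *ifc* (0.72). With all 36 libraries, 1 of the 4 was called, and without HFD-TRF at ZT11 or WT-TRF at ZT7, 2.

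Digestive enzymes held several of the largest decreases. Of 44 tested, 15 were lower (34.1%, against 4.74% of all genes) and 0 higher, with a list median of −0.34. These 15 were among the 16 lower under ALF. In 6 of the 15, no HFD-TRF library had more than 3 counts. *Jon25Biii* (2L:4949941-4950767), a Jonah serine protease of the midgut, had 0 to 0.102 CPM in HFD-TRF (median 0.0203), against 0.899, 18.4, 25.9, 9.36 and 52.5 CPM in WT-TRF. Every HFD-TRF library was at the floor, which makes it at least 137-fold lower (adjusted p = 0.00212). *LManVI*, a lysosomal α-mannosidase, was at 0 in 5 HFD-TRF libraries and at 0.234 CPM in the sixth, against 0.642, 0.410, 47.7, 5.62 and 16.2 CPM in WT-TRF (adjusted p = 0.000205).

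The other members at the floor in HFD-TRF were *Jon99Fi* (at least 48.4-fold lower), *Jon65Ai* (21.8-fold), *Jon44E* (19.8-fold), *zetaTry* (9.92-fold) and *iotaTry* (8.72-fold). *CG10477* and *CG11911*, outside the list, were at least 212-fold and 109-fold lower. *lambdaTry*, *thetaTry*, *Jon99Fii*, *Jon65Aii*, *LManV*, *LManI*, *LManII* and *Mal-A3*, a maltase, were the remaining ones. For *thetaTry* and *LManV*, a single WT-TRF library held 437 of 471 and 412 of 429 WT-TRF counts. Their medians were 0 and 0.257 CPM in WT-TRF and 0.0848 and 0.156 CPM in HFD-TRF. Values within the Jon25B and Jon99F clusters, whose copies are alike, are uncertain. Within the WT-TRF group these genes varied widely, with ZT3 lowest for *Jon25Biii*.

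Jonah proteases and trypsins are products of the gut. Summed gut markers did not separate the diets, at 474 to 5380 CPM in HFD-TRF and 337 to 2122 CPM in WT-TRF, and 3 of 16 gut markers, all of them members of the digestive list, were lower. Another 21 digestive enzymes with a mean of at least 50 counts were not called. With all 36 libraries, 15 were lower. When the 11 TRF libraries were fitted alone, 26 passed the filter on low counts and 2 of them were lower.

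Cytochrome P450 genes, oxidases of xenobiotics, steroids and fatty acids, had 12 of 73 members lower (16.4%, against 4.74% of all genes) and 0 higher. Their median log2 fold change was −0.28. *Cyp313a1* (3R:14521049-14523064) had 4.75 to 27.8 CPM in HFD-TRF (median 7.58), against 34.4, 90.7, 70.4, 110 and 44.1 CPM in WT-TRF, without overlap (log2 fold change −2.63 ± 0.40, adjusted p = 9.77e-05). *Cyp4d21* (−2.59), *Cyp4ac2* (−1.46), *Cyp4ac1* (−1.32) and *Cyp6t1* (−1.32) came next. Of the 12, 11 were also lower under ALF. Without WT-TRF at ZT7, 6 were called, and 7 with all 36 libraries.

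Among the 15 genes that rose furthest and did so at all 5 shared time points, 6 were immune peptides or immune-induced genes (*Def*, *Drsl2*, *CecB*, *AttB*, *Listericin* and *edin*, a peptide elevated on infection). *Fst*, known as Frost for its response to cold, had 8.13 to 1024 CPM in HFD-TRF (median 300), against 0.513, 4.10, 4.74, 12.2 and 7.89 CPM in WT-TRF, and HFD-TRF at ZT3 was the one library inside the WT-TRF range (log2 fold change 6.34 ± 1.13, adjusted p = 0.000557). *Acbp6*, an acyl-CoA binding protein, rose by 5.78, *CG3604* by 5.39, *Listericin* by 5.18 and *edin* by 5.06.

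*CG32302* had 0.701 to 41.6 CPM in HFD-TRF (median 7.91), against 0, 0, 0.206, 0 and 0 CPM in WT-TRF, which is at least 28.9-fold higher (adjusted p = 0.000199). *CG43294* had 0.0467 to 15 CPM in HFD-TRF (median 1.47) and 0 in all 5 WT-TRF libraries, at least 7.75-fold higher, with 15 CPM at ZT15 and no more than 4.14 CPM elsewhere. Without that library its adjusted p was 0.0635, and without WT-TRF at ZT7 it was 0.0588. *CG45061* was at least 59.1-fold higher, and *CG14205* (5.17), *CG13324* (4.91) and *CG34227* (4.89) complete the 15.

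Among the 15 that fell furthest at all shared time points, outside the families above, were *CG17571* (−6.39), *CG15406* (−3.32), *fusl* (−1.65), *CG13833* (−1.60) and *CG43051* (−1.38). For *CG15406*, a single WT-TRF library held 903 of the 1217 WT-TRF counts. *fusl* had 11.2 to 28.5 CPM in HFD-TRF against 37.5 to 66.1 CPM in WT-TRF, an adjusted p of 5.69e-06 and no overlap.

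Under unrestricted feeding the same diets differed at more genes, 942 higher (9.42%) and 717 lower (7.17%) in HFD-ALF against WT-ALF. The ALF comparison uses other libraries than the TRF one. Both called 335 genes higher (3.35% of those tested), which is 58.5% of the TRF list and 35.6% of the ALF list. Both called 221 lower (2.21%), 46.6% of the TRF list and 30.8% of the ALF list. No gene was called in opposite directions. The shared lower genes numbered 117 without WT-TRF at ZT7 and 138 without WT-ALF at ZT19.

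A gene called in only 1 regimen is not thereby shown to differ between them, so the difference of the diet effects was tested directly. No gene passed (0% at an adjusted p below 0.05 in edgeR, smallest adjusted p 0.346, with 798 genes at an unadjusted p below 0.05). DESeq2 called 3, *CG5767*, *CG18404* and *Dscam4*, which were singled out after their values were seen. *CG5767* and *CG18404* had 0 counts in every HFD-TRF library. *Dscam4*, an adhesion molecule of neurons, had a difference of −2.5 in edgeR (adjusted p = 0.346), with a log2 fold change of −0.53 under TRF and 1.98 under ALF.

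Most genes called under TRF alone had the same sign under ALF, as had 7106 of all 9996 genes. The 238 higher only under TRF had medians of 0.82 under TRF and 0.35 under ALF, and 226 had the same sign. The 253 lower only under TRF had medians of −0.73 and −0.28, and 242 had the same sign. The 496 genes lower only under ALF had medians of −0.33 under TRF and −0.64 under ALF. Of these, 463 had the same sign and 72 differed between regimens at an unadjusted p below 0.05. For the 607 genes higher only under ALF, the medians were 0.11 under TRF and 1.41 under ALF. Among these 607, 389 had the same sign and 353 differed between regimens at an unadjusted p below 0.05. These medians are descriptions, since the same values chose the genes.

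Neuronal markers moved with that set. Of 15, 13 were higher in HFD-ALF than in WT-ALF, with a median log2 fold change of 1.41. Under TRF 0 of 15 were called (1 at an unadjusted p below 0.05, 0 with DESeq2), with a median of 0.00. The diet effect on 13 of them differed between regimens at an unadjusted p below 0.05, and on 0 after adjustment. Their sum was 253 to 653 CPM in HFD-TRF and 263 to 697 CPM in WT-TRF, against 376 to 1375 CPM in HFD-ALF and 267 to 422 CPM in WT-ALF. Its part in the ALF calls was not tested.

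Side by side, the gene groups fell into those alike in both regimens and those further apart. Antimicrobial peptides had a median log2 fold change of 4.06 under TRF and 3.99 under ALF, Bomanins 1.5 and 1.17, and heat shock proteins 0.85 and 1.2. Oxidative phosphorylation subunits had a median of −0.76 under TRF with 39 lower, and −0.24 under ALF with 2 lower and 1 higher. The diet effects of 10 of the 69 differed between regimens at an unadjusted p below 0.05 and of 0 after adjustment. TCA cycle enzymes had medians of −0.58 and −0.17, with 7 and 0 lower. Peptidoglycan recognition proteins had medians of 1.54 and 0.77, with 8 and 4 higher.

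**Figure D5:**
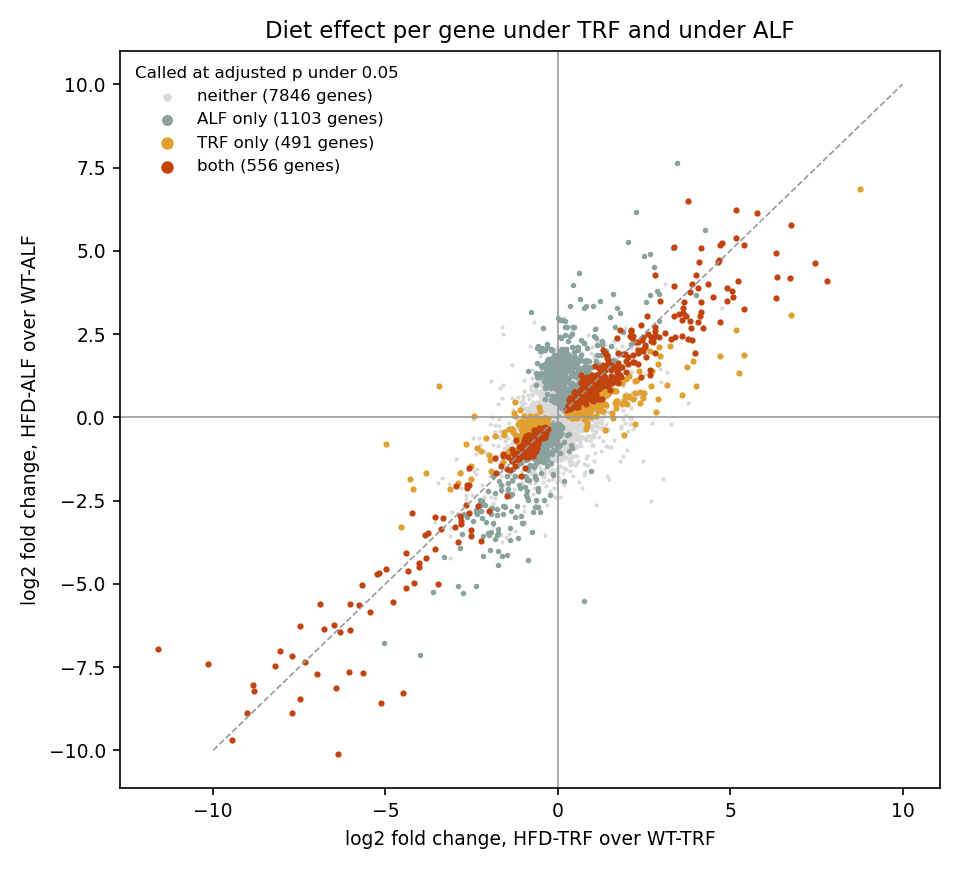
Log2 fold change of each of the 9996 tested genes, HFD-TRF over WT-TRF on the horizontal axis and HFD-ALF over WT-ALF on the vertical axis, coloured by the regimen in which it was called; the dashed line marks equal values. The 335 genes higher in both lie at the upper right and the 221 lower in both at the lower left, and the 607 genes higher under ALF alone have a median near 0 on the TRF axis (0.11).

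Of the genes with the most different diet effects, 8 with a larger log2 fold change under TRF and 8 with a smaller one were taken by the smallest unadjusted p, since none passed adjustment. *Idgf3*, a secreted chitinase-like growth factor, had 343 to 524 CPM in HFD-TRF (median 403), against 264, 204, 261, 164 and 219 CPM in WT-TRF, without overlap. Under ALF it had 223 to 348 CPM in HFD-ALF and 189 to 320 CPM in WT-ALF. The log2 fold changes were 0.94 and 0.13, and their difference did not pass adjustment.

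*CG17167* had 12.2 to 45.5 CPM in HFD-TRF (median 31.9), against 7.45, 5.54, 10.1, 8.73 and 9.29 CPM in WT-TRF (log2 fold change 1.92, adjusted p = 0.0103). Under ALF its log2 fold change was −0.54. *Pdxk*, pyridoxal kinase, which makes the active form of vitamin B6, changed by 0.81 under TRF and −0.34 under ALF. *CG16965* (0.85 and −0.27), *CG3631* (0.32 and −0.24), *CG16704* (0.32 and −1.0), *Pld3* (0.10 and −0.48) and *Slu7* (−0.04 and −0.47) made up the 8, and of these only *CG16965* was called under TRF.

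Of the 8 with a smaller fold change under TRF, *CG14742* had 20.2 to 27.9 CPM in HFD-TRF (median 23.8), against 46.1, 53.4, 42.6, 46.8 and 48.8 CPM in WT-TRF (log2 fold change −0.99 ± 0.20, adjusted p = 0.00214), and 0.03 under ALF. *GstD2*, a detoxifying glutathione S-transferase, had 1.73 to 8.80 CPM in HFD-TRF (median 4.33), against 5.13, 1.23, 2.58, 3.12 and 2.79 CPM in WT-TRF, and was not called (0.83). Under ALF it was called, at 3.34. The others were *CG32816* (−1.25 and 0.03), *slbo* (−0.54 and 0.32), *tio* (0.03 and 1.16), *Ank2* (−0.20 and 0.52), *Obp44a* (−0.31 and 2.12) and *Gycbeta100B* (−0.40 and 1.08).

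TRF sets food to the light phase, so the diet effect was also fitted apart for the feeding window (3 HFD-TRF and 2 WT-TRF libraries) and the fasting window (3 of each), over 9814 genes. In the feeding window 6 genes were higher (0.0611%) and 0 lower (0%, with 627 lower at an unadjusted p below 0.05). The 6 were *Drs*, *pirk*, *Hayan*, a serine protease of melanisation, *Mvl*, a metal ion transporter, *yin*, a peptide transporter, and *ome*, a dipeptidyl peptidase. In the fasting window 57 were higher (0.581%) and 43 lower (0.438%).

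The difference between windows was not significant for any gene (0%, smallest adjusted p 0.986, with 439 genes at an unadjusted p below 0.05, and 0 with DESeq2). Antimicrobial peptides had a median log2 fold change of 6.77 in the feeding window and 3.07 in the fasting window, which contains the WT-TRF library at ZT15. Oxidative phosphorylation subunits had −1.04 and −0.43.

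None of 13 clock and clock output genes was called (2 higher at an unadjusted p below 0.05, 0 with DESeq2). The log2 fold changes were −0.02 for *tim*, 0.21 for *per*, 0.10 for *Clk*, 0.41 for *cyc*, −0.22 for *cry*, 0.38 for *vri*, −0.01 for *Pdp1*, 0.19 for *cwo*, 0.30 for *dco*, 0.02 for *sgg*, −0.24 for *jet*, −0.76 for *to* and 2.68 for *Pdf* (adjusted p = 0.256). For *to*, a single WT-TRF library held 5432 of the 9347 WT-TRF counts, at 1695 CPM. The medians of *to* went the other way, at 233 CPM in HFD-TRF and 9.5 CPM in WT-TRF. *tim* ranged between 124 and 301 CPM in HFD-TRF and between 71.0 and 334 CPM in WT-TRF over the day.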

How the data were processed

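RNA from dissected flight muscle was sequenced as single-end reads. The authors aligned them with STAR (version 2.5.3a in the submitters' processing notes) to dm6 and, per the file header, counted uniquely assigned reads over exons with featureCounts 1.5.0-p1 on the reverse strand, so the deposited values are raw counts per gene for 36 libraries and 16727 genes. Reads from near-identical copies are lost or split by this counting.

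Groups were taken from the sample labels. Following the study, WT-TRF at ZT11 and the Sk2-ALF library at ZT23 were left out, and 34 libraries in 6 groups entered 1 model of group means (edgeR 4.0.16 quasi-likelihood test, filterByExpr, TMM, R 4.3.3), with Benjamini-Hochberg adjustment over 9996 genes and calls at an adjusted p below 0.05. Log2 fold changes are HFD over WT and errors are standard errors. CPM values use the TMM library sizes. Feeding and fasting windows were compared in a model of the 11 TRF libraries alone. A group with no library above 3 counts was set to a floor of 3 counts per library, and its fold is a bound. The procedure was checked on simulated data.

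Genes named were drawn from several sets, not all of which are printed in full. The first holds the 15 largest folds in each direction among called genes. These had a mean of at least 50 counts and 1 direction at all 5 shared time points. Others are the 8 with the most different diet effects and the 5 strongest shared by both regimens, in each direction. Called members of the gene lists, and all members of the antimicrobial, clock, lipid droplet and 13-gene study lists, complete them. The comparison, its genes and its lists were chosen with earlier results of these data known. Alternatives were DESeq2 1.42.0, RLE scaling, other filters on low counts, thinned counts, all 36 libraries, the 11 TRF libraries alone, the 5 shared time points, the time point as a block, the study's threshold, and each library left out in turn.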

Additional observations from a re-analysis of the deposited data

Results flagged for a closer look

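In 10 of 86 groups of libraries examined, 1 library stood apart from the rest of its group by Dixon's criterion. Chance meets it in about 1 in 20 groups of normally distributed values. Most groups here are CPM on a linear scale, so that rate need not hold. A group in which all but 1 value are 0 always meets it. WT-TRF at ZT15 stood high for *AttC* (605 CPM), *DptA* (576 CPM) and *PGRP-SB1* (171 CPM). For *CG32302* it was the only WT-TRF library above 0 (0.206 CPM, below the floor). WT-TRF at ZT3 stood high for *BomS1* (194 CPM). HFD-TRF at ZT7 stood high for *Rel* (2222 CPM) and *LpR1* (922 CPM), and low for the median of the oxidative phosphorylation subunits (−1.49 on the log2 scale relative to WT-TRF). HFD-TRF at ZT3 was the only one of its group above 0 for *LManVI* (0.234 CPM), and HFD-TRF at ZT15 stood high for *CG43294* (15.02 CPM).

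Of the tests above, the WT-TRF library at ZT11 enters only the fits to all 36 libraries. It exceeded every other WT-TRF library for the 6 measures given next. It did so for other gene groups too, among them DNA replication and mitosis genes, which summed to 6988 CPM there and to at most 707 CPM in the others. Eggshell markers summed to 1424 CPM there and to at most 46.6 CPM in the others, and gut markers to 2902 CPM and at most 2122 CPM. It held 467 CPM of *Hsp26* and at most 24.8 CPM elsewhere, 228 CPM of *Hsp27* and at most 3.98 CPM, 111 CPM of *spz* and at most 39.4 CPM, and 0.669 CPM of *CG32302* and at most 0.206 CPM.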

How the results depend on the processing

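Depth differed between the diets without overlap and 1 pool stands for each time point, so low genes are measured less precisely in WT-TRF. Fitting the 11 TRF libraries alone gave 366 higher and 203 lower genes, and the study's threshold on the fold, at an unadjusted p of at most 0.05, gave 1043 and 1107. Leaving out 1 TRF library at a time gave 408 to 666 higher and 208 to 615 lower genes. Genes lower under both TRF and ALF numbered 110 with at least 10 counts required in every library, 120 with thinned counts, and 117 to 283 with 1 library left out. Genes higher under both numbered 271 to 429. DESeq2 called 3 genes for the difference between regimens, where edgeR called 0 under every alternative, and the difference between windows stayed at 0 throughout. The cause of these shifts was not tested. With all 36 libraries, both left-out libraries included, *Hsp26* changed to −0.057 and *Hsp27* to −1.65. Single genes were followed too, not all of them named here. Of 223 called ones, 102 kept their call under every alternative that tested them. Another 107 lost it when 1 library was left out, and 61 lost it with all 36 libraries. Of 765 list medians under alternatives, 19 moved by more than the spread between libraries. Time points did not pair the libraries, with correlations of deviations between the same times in both diets of 0.124, 0.208, −0.087, −0.0015 and 0.16 at ZT3, ZT7, ZT15, ZT19 and ZT23. With the time point as a block, 546 genes were higher (510 of them shared with the fit without it) and 522 lower (425 shared). Leaving out ALF libraries, and the alternatives for the windows, were added after the data were seen.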

Other observations

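Single genes were called in a few further groups. Shares called higher and lower were 8.7% and 4.35% for autophagy genes and 9.52% each for antioxidant genes. For glutathione S-transferases they were 3.33% and 6.67%, and for all genes 5.73% and 4.74%. Among 23 autophagy genes, the initiating kinase *Atg1* was higher by 0.59 on the log2 scale, with 67.2 to 128 CPM in HFD-TRF against 51.1 to 72.7 CPM in WT-TRF, the cargo receptor *ref(2)P*, the fly p62, was higher by 0.40, and *Atg10* was lower (−0.58). Of 21 antioxidant genes, *Keap1*, the brake on the Nrf2-type factor CncC, was higher by 0.75, and *Prx3*, the mitochondrial peroxiredoxin, was lower (−0.37). Of 30 glutathione S-transferases, *GstE1* was higher by 1.21 and *GstE13* lower (−0.44). *Hmgs*, the HMG-CoA synthase, had 109.8 to 154 CPM in HFD-TRF against 81.5 to 108 CPM in WT-TRF, without overlap (0.49). *Hnf4*, a nuclear receptor of lipid catabolism, was lower (−0.37), the only 1 of 13 nuclear receptors of metabolism. With all 36 libraries, with thinned counts or with the time point as a block, 0 of these 13 were lower.

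Muscle calcium handling (9 genes, 3 lower at an unadjusted p below 0.05), proline and transamination genes (11 genes, 4 lower), neuromuscular glutamate receptor subunits (5 genes, 1 lower) and DNA replication genes (31 genes, 1 lower) had 0 members called by edgeR. DESeq2 called 1 lower gene in each of the calcium and proline groups and 0 in the other two. With all 36 libraries, 24 of the 31 DNA replication genes and 3 of 9 tested eggshell markers were lower. Of the autophagy genes, 5 were higher when at least 10 counts were required in every library. Of 10 Malpighian tubule markers *Nep1* was lower (−0.68), and of 21 cuticle markers *Cpr49Ae* (−1.18) and *Cpr97Eb* (−1.15) were lower.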
